A study of Homo sapiens with 6 samples.

Results

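REST, its corepressors RCOR1 and RCOR2, and 29 neuronal genes known as REST targets were followed in human naive and primed pluripotent stem cells. These 32 genes are 32 of the 48183 gene names in the count table. They were chosen by name with earlier results of these data known, so their difference between naive and primed cells is given as a description. Where the text says that one of them passed a threshold in that contrast, this describes the fit and is not evidence. The libraries are bulk polyA RNA-seq of H1 human embryonic stem cells that carry the EOS-GFP reporter; the labels name H1, whereas the study's text names H9. The 2 primed libraries are the parental lines, EOS primed and CA-p38 EOS primed, the latter carrying a doxycycline-inducible, constitutively active p38 kinase. The 4 naive libraries are VPA naive (induced with the histone deacetylase inhibitor valproic acid), CA-p38 naive (induced with doxycycline), and AICAR naive 1 and AICAR naive 2 (induced with the AMPK activator AICAR). The labels describe naive cells grown in PXGL medium on mouse feeder cells, passaged after induction and sorted for CD75 and SUSD2, whereas primed cells were grown in StemFit on Matrigel and were not sorted. Medium, feeders and sorting therefore cannot be told apart from the cell state, and nothing in the labels says that libraries of a state came from independent conversions. The study's text gives successive passages for its AICAR naive cells and does not say whether these came from the same conversion.

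REST is a zinc finger repressor that binds a long element called RE1 beside many neuronal genes and keeps them low outside neurons. It recruits the CoREST scaffold proteins (RCOR1, RCOR2 and RCOR3), which carry the histone demethylase KDM1A and the deacetylases HDAC1 and HDAC2, and through another surface it recruits SIN3A. Its targets in neurons include proteins of synaptic vesicles, the granins of dense-core vesicles, ion channels, and proteins of the cytoskeleton. REST is also expressed in pluripotent cells, where many of these targets are held low.

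Part of the RE1 element, CAGCACC followed by any 2 letters and GGACAG, was searched on both strands. Within 2500 bases either side of the canonical transcript start (GENCODE, GRCh38), an exact copy lay at 12 of the 29 targets (41.4%) and at 122 of 20033 protein-coding genes (0.609%). A copy with at most 1 mismatch in the 13 letters lay at 16 targets (55.2%) and at 3.34% of all protein-coding genes. In the shorter RefSeq promoters (250 bases before to 50 after the start, GRCh38.p14), 2 of the 20 targets with an entry held an exact copy, against 0.0586% of 27305 promoters. Many of the targets are known for their RE1 elements, so their share is a description, and a match is a string of letters, not a measured binding site. Among the 21-base runs below, those of CHGA and GRIN1 are identical, and so are those of CHGB and CACNA1B. The genes of each pair differed in opposite directions between the states. The remaining runs are further exact copies of the motif. Capitals mark the letters that match it.
CHGA: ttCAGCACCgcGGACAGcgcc
GRIN1: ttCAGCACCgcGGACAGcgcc
CHGB: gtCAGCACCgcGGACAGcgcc
CACNA1B: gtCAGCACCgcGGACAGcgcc
SYN1: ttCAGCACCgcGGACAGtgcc
SYP: tcCAGCACCgtGGACAGagcc
SYT4: ttCAGCACCtcGGACAGaaca
SCN2A: ctCAGCACCatGGACAGcgtt
SNAP25: ttCAGCACCggGGACAGcggt

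The CHGA copy lies in an intron at chr14:92923523-92923543 on the plus strand, and the GRIN1 copy in an exon at chr9:137139260-137139280 on the plus strand. The CHGB copy lies in an intron at chr20:5911704-5911724 on the plus strand, and the CACNA1B copy in an intron at chr9:137878787-137878807 on the minus strand. The SYN1 copy lies outside the canonical transcript, 223 bases before its start, at chrX:47620070-47620090 on the minus strand. The SYP copy is intronic (chrX:49200122-49200142, minus strand), and the SYT4 copy is exonic (chr18:43277293-43277313, minus strand). The SCN2A copy lies 920 bases before the transcript start at chr2:165238484-165238504 on the plus strand, and the SNAP25 copy in an intron at chr20:10219672-10219692 on the plus strand. All positions are on GRCh38.

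Total counts per library ran from 46823699 to 54277064, so the floor of 3 counts corresponded to 0.0553 to 0.0641 CPM (counts scaled to the library total). All 7 naive markers were higher in naive libraries (edgeR, adjusted p under 0.05), led by ALPG, KLF17, DPPA5 and DPPA3, although SUSD2 among them was used for sorting. All 5 primed markers were lower, led by SFRP2, DUSP6, THY1 and CD24. At this threshold, 26% of all names tested were higher in naive libraries and 27% lower. The median log2 fold change over all 26497 names tested was 0.11, so differences of that size carry no direction. Values below are TMM-scaled CPM, and naive values are always given in the order VPA, CA-p38, AICAR 1 and AICAR 2, with EOS primed before CA-p38 EOS primed. Fold changes are fitted log2 values, naive minus primed, with their standard error (SE). In bulk RNA, fewer cells of a type and less RNA per cell cannot be told apart.

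REST (chr4:56907876-56966808, plus strand) averaged 6.80-fold higher in the naive cells. Its level was 415, 548, 467 and 530.0 CPM in the naive libraries and 69.5 and 74.6 CPM in the primed libraries. The lowest naive library, VPA, was far above both primed libraries, and the log2 fold change was 2.77 (SE 0.136). A gene on the opposite strand, NOA1, shares exon sequence with REST, and whether the counting used strand is not stated. The same limit holds for SYT1, SYN1, SYP, BDNF, L1CAM, SCN3A and CACNA1B, which makes 8 of the 32 genes. Outside the 32 genes, it also holds for NEFH, NEFM, CHRNB2, EHMT2, HDAC2, SIN3A, SRRM4, CUL1 and COL1A1, which are reported below. RCOR1, the founding CoREST scaffold, read 72.7, 78.4, 82.1 and 82.9 CPM in the naive libraries and 38.4 and 39.6 CPM in the primed libraries. RCOR2, a CoREST paralog of pluripotent and neural progenitor cells, went the other way, with 7.51, 8.19, 8.34 and 7.99 CPM against 136 and 117 CPM. Neither gene overlapped between the states, with log2 fold changes of 1.02 (SE 0.113) for RCOR1 and -3.98 (SE 0.118) for RCOR2.

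**Figure D1:**
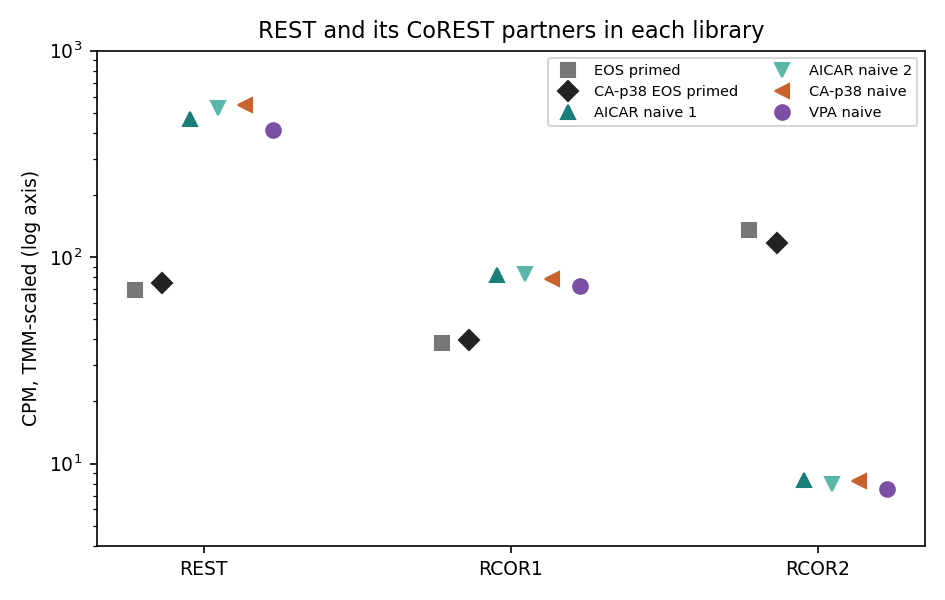
Level of REST, RCOR1 and RCOR2 in each of the 6 libraries (TMM-scaled CPM, log axis), 1 point per library. REST and RCOR1 were higher in all 4 naive libraries (REST 415 to 548 CPM against 69.5 and 74.6 CPM), and RCOR2 was lower in all 4 (7.51 to 8.34 CPM against 136 and 117 CPM).

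Levels of different genes were compared per kilobase of canonical transcript. REST was the highest of the 32 genes in the naive cells, with a mean of 67.0 CPM per kb, and ranked 7 in the primed cells with 9.85 CPM per kb. RCOR2 was the highest in the primed cells, with 43.3 CPM per kb, and ranked 9 in the naive cells with 2.75 CPM per kb. The makeup of the CoREST genes thus differed between the states. RCOR2 gave 81.4% and 76.9% of the summed RCOR1, RCOR2 and RCOR3 level per kb in the primed libraries and 11.9% to 12.6% in the naive libraries. RCOR1 gave 11.7% and 13.2% in the primed and 58.4% to 64.1% in the naive libraries. The sum itself was lower in the naive libraries, 21.6 to 23.3 CPM per kb against 57.3 and 52.0 CPM per kb.

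Of the 32 genes, 31 passed the filter on low counts. Past the threshold of adjusted p under 0.05 in edgeR were 9 genes higher and 19 genes lower in naive libraries, while 26% of all names tested were higher and 27% lower. Every naive library lay above both primed libraries for 9 of the 32 genes and below both for 19, against 32.9% and 32.1% of all names tested. The median log2 fold change of the 31 genes was -1.51. Since the genes were chosen with this contrast known, nothing is read from these counts. By role, the granins and secreted factors were all lower, the vesicle genes mostly lower, and the receptor and channel genes higher or overlapping.

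**Figure D2:**
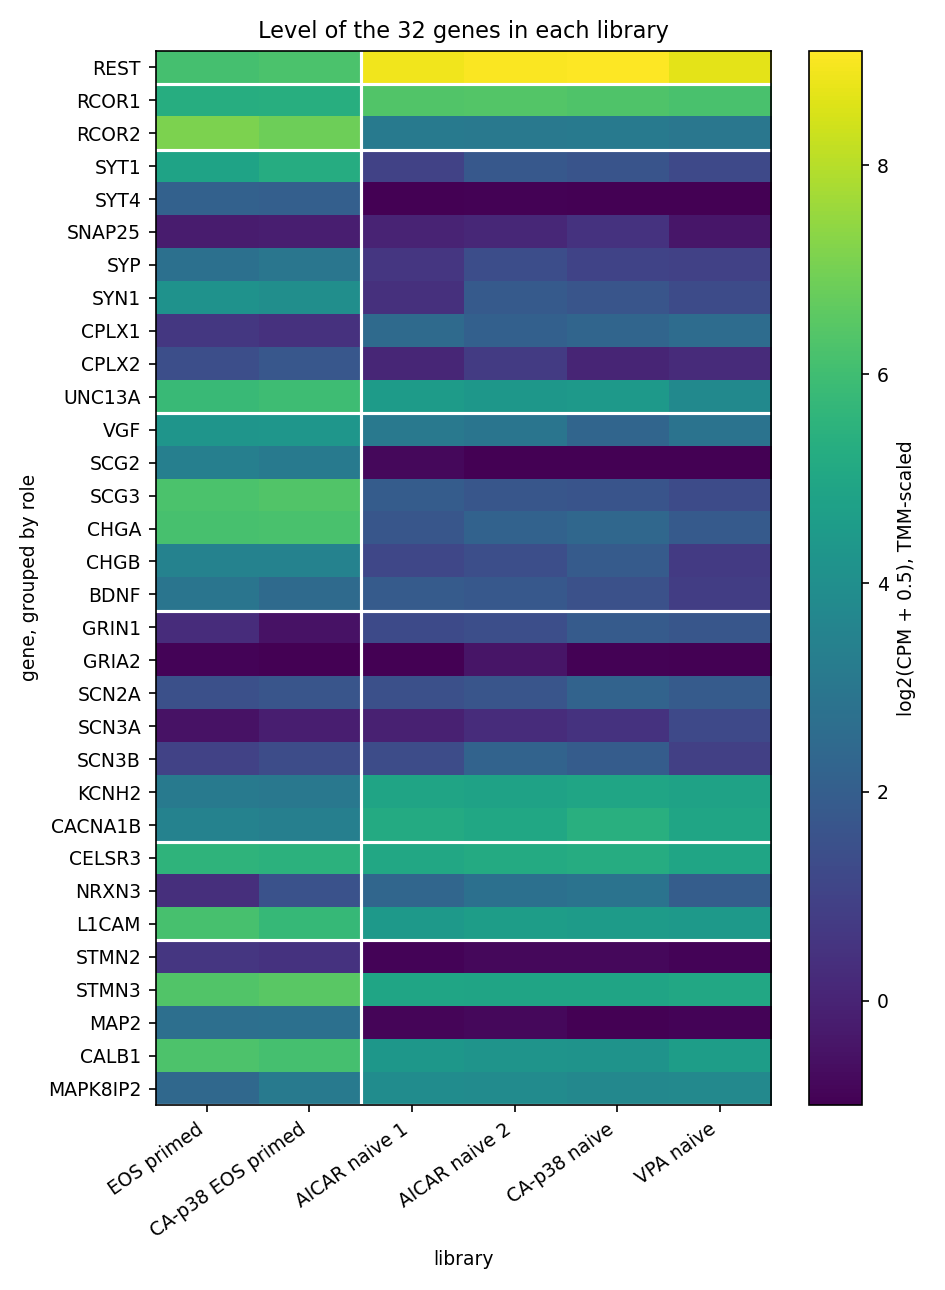
Level of the 32 genes in each library as log2(CPM + 0.5), with genes grouped by role (white horizontal lines) and primed libraries left of the vertical line. The granin rows (VGF to CHGB) are brighter in both primed libraries, and the KCNH2 and CACNA1B rows are brighter in all 4 naive libraries.

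Among the 8 genes of synaptic vesicles and release, 6 were lower in naive cells, CPLX1 was higher and SNAP25 overlapped. SYT1, the calcium sensor of fast transmitter release, read 1.83, 2.59, 1.47 and 2.98 CPM in the naive and 28.7 and 37.7 CPM in the primed libraries. The primed mean was 14.9-fold the naive mean, and the log2 fold change was -3.90 (SE 0.247). SYT4, a synaptotagmin of dense-core vesicles, was close to off in naive cells. It had 1 count in the 4 naive libraries together, in AICAR naive 2, and 371 counts in the primed libraries (3.92 and 3.62 CPM). The ratio of pooled CPM, primed over naive, was 780.0 with an exact binomial 95% interval of 139 to 30890, which covers counting error only.

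SYN1, a phosphoprotein that tethers vesicles, read 1.99, 2.65, 0.810 and 3.14 CPM in the naive and 17.2 and 15.4 CPM in the primed libraries. SYP, an integral vesicle membrane protein, read 1.43, 1.56, 1.03 and 2.13 CPM against 6.2 and 7.32 CPM. For both, every naive library was below either primed one, with log2 fold changes of -2.93 (SE 0.363) and -2.13 (SE 0.295). AICAR naive 1 was the lowest library for both, and SYN1 shares exon sequence with ARAF and SYP with SYP-AS1 on the opposite strand. UNC13A, which primes vesicles for fusion, was also lower in each naive library, with 13.5, 21.0, 22.6 and 19.9 CPM against 57.5 and 61.2 CPM (log2 fold change -1.62, SE 0.172).

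The complexins, which clamp and promote vesicle fusion, differed in opposite directions. CPLX1 read 5.46, 4.45, 5.19 and 3.73 CPM in naive cells against 1.05 and 0.859 CPM in primed cells (log2 fold change 2.30, SE 0.310). CPLX2 read 0.688, 0.534, 0.571 and 1.17 CPM in naive cells against 2.2 and 2.80 CPM in primed cells (log2 fold change -1.76, SE 0.383). Per kilobase, CPLX1 was higher in the naive than in the primed mean, 2.23 against 0.452 CPM per kb. SNAP25, a SNARE protein, read 0.268, 0.891, 0.497 and 0.584 CPM in naive cells against 0.344 and 0.409 CPM in primed cells. The states overlapped for SNAP25, with VPA naive below and the other naive libraries above the primed ones.

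All 6 granins and secreted factors were lower in every naive library, with a median log2 fold change of -3.32. Granins are acidic proteins packed into dense-core granules of endocrine and neuronal cells. SCG3 read 1.95, 2.57, 3.31 and 2.72 CPM in the naive and 75.9 and 81.5 CPM in the primed libraries (log2 fold change -4.90, SE 0.176). CHGA, which drives granule formation, read 3.11, 4.73, 2.80 and 4.01 CPM against 70.6 and 72.0 CPM (log2 fold change -4.28, SE 0.185); its counts are the sum of 2 identifiers that share the name. Per kilobase, CHGA ranked 3 of the 32 genes in primed cells, with 35.9 CPM per kb, and 14 in naive cells. CHGB was lower by less, with 1.17, 3.21, 1.73 and 2.17 CPM in the naive and 10.6 CPM in both primed libraries (log2 fold change -2.36, SE 0.318).

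SCG2 had 4 counts in the naive libraries, all in AICAR naive 1, and 878 counts in the primed libraries (9.64 and 8.2 CPM). The pooled ratio, primed over naive, was 462 with a 95% interval of 180 to 1698. VGF, a secreted neuropeptide precursor, read 6.69, 4.39, 8.01 and 7.05 CPM in the naive and 18.5 and 19.4 CPM in the primed libraries (log2 fold change -1.53, SE 0.217). BDNF, a neurotrophin, read 1.26, 2.38, 3.22 and 2.96 CPM against 7.09 and 5.05 CPM (log2 fold change -1.31, SE 0.337). VPA naive was the lowest library for BDNF, and without EOS primed its log2 fold change was -1.05 and no longer past the threshold. BDNF-AS shares exon sequence with BDNF.

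**Figure D3:**
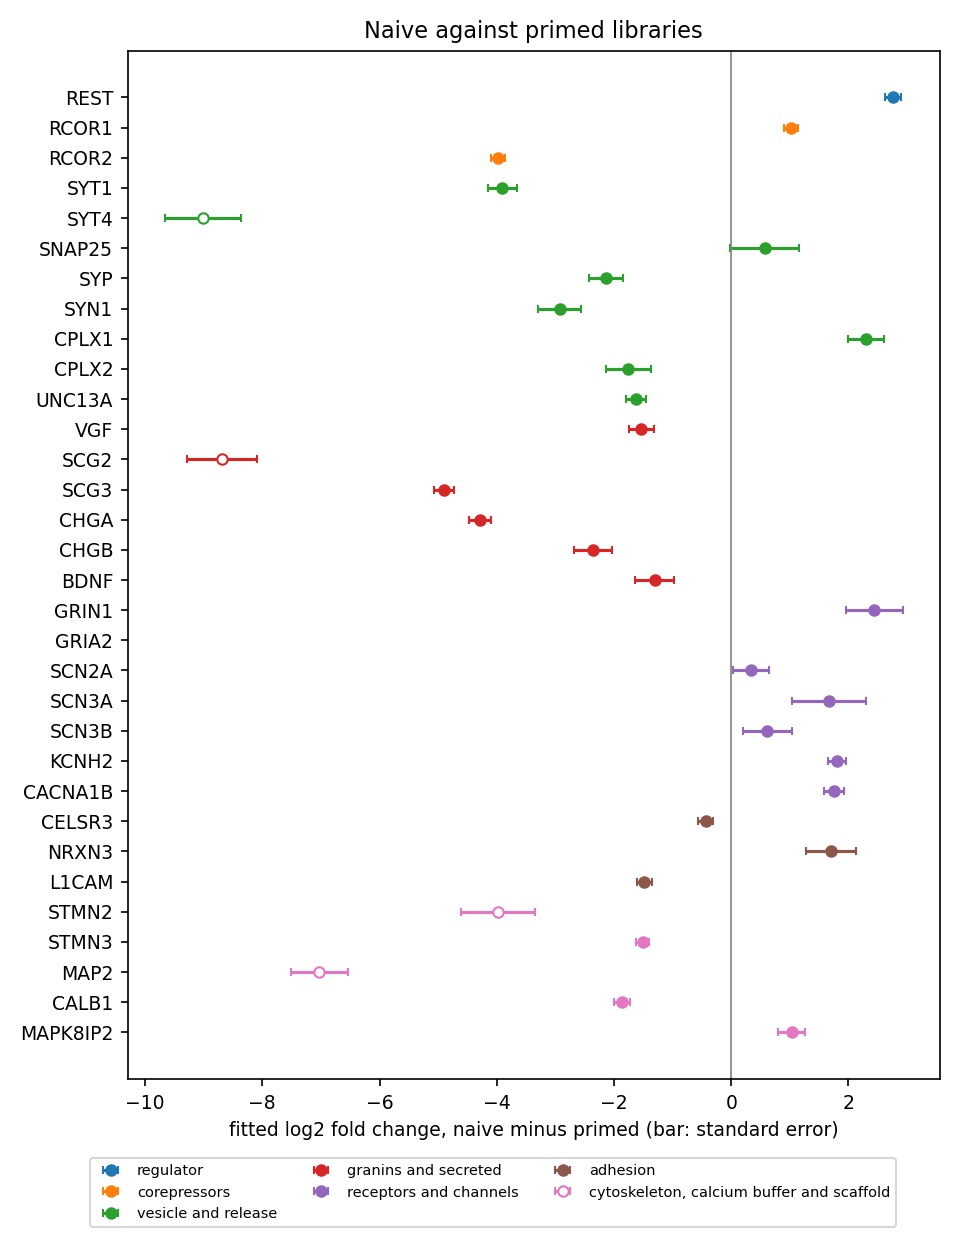
Fitted log2 fold change, naive minus primed, of each gene, with bars of 1 SE and colors by role; open points mark genes with under 20 counts in all naive libraries together, whose position depends on the prior count, and GRIA2 was not tested. All 6 granins and secreted factors lie left of 0 and all 6 receptor and channel genes tested lie right of 0.

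None of the 7 receptor and channel genes was lower in the naive libraries: 4 were higher and 3 overlapped. KCNH2, a potassium channel of the heart and of neurons, read 27.4, 29.9, 29.3 and 27.9 CPM in the naive and 8.57 and 7.79 CPM in the primed libraries (log2 fold change 1.81, SE 0.149). CACNA1B, the pore of the N-type calcium channel, read 30.0, 40.5, 35.7 and 31.7 CPM against 10.6 and 9.86 CPM (log2 fold change 1.75, SE 0.165). The naive means were 3.50-fold and 3.38-fold the primed means, and each naive library was far above both primed ones. GRIN1, the obligate subunit of NMDA receptors, read 2.77, 3.25, 1.93 and 2.22 CPM in the naive and 0.728 and 0.204 CPM in the primed libraries (log2 fold change 2.44, SE 0.489). The GRIN1 value rested on the primed libraries, at 3.61 without EOS primed and 1.81 without CA-p38 EOS primed.

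The sodium channel genes were low in both states. SCN3A read 1.83, 0.910, 0.460 and 0.705 CPM in the naive and 0.202 and 0.409 CPM in the primed libraries. Its log2 fold change was 1.67 (SE 0.634), and it no longer passed the threshold when VPA naive (1.16), CA-p38 naive (1.68), EOS primed (1.24) or CA-p38 EOS primed (2.27) was left out. SCN2A, which read 3.25, 4.20, 2.26 and 2.64 CPM in naive cells against 2.24 and 2.64 CPM in primed cells, overlapped between the states. SCN3B, a sodium channel beta subunit, also overlapped, with 1.38, 3.31, 2.04 and 4.17 CPM against 1.48 and 2.07 CPM. GRIA2, an AMPA receptor subunit, was at or near 0 in 5 libraries, with 0, 1, 0 and 12 counts in the naive and 2 and 0 counts in the primed libraries, and was not tested.

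Of the 3 adhesion genes, L1CAM and CELSR3 were lower and NRXN3 was higher in naive cells. L1CAM, a neuronal adhesion molecule of the immunoglobulin family, read 21.5, 22.8, 21.0 and 23.9 CPM in the naive and 71.0 and 53.5 CPM in the primed libraries (log2 fold change -1.48, SE 0.135). CELSR3, an atypical cadherin, differed least of the 3, with 30.0, 37.2, 32.8 and 35.7 CPM against 47.6 and 44.2 CPM (log2 fold change -0.43, SE 0.127). NRXN3, a presynaptic neurexin, read 3.48, 6.67, 4.56 and 6.08 CPM in the naive and 0.788 and 2.41 CPM in the primed libraries (log2 fold change 1.70, SE 0.429). Without EOS primed, the log2 fold changes of CELSR3 (-0.39) and NRXN3 (1.09) no longer passed the threshold, and without CA-p38 EOS primed that of NRXN3 was 2.73.

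Of the 5 genes for the cytoskeleton, calcium buffering and scaffolding, 4 were lower. MAP2, the dendritic microtubule protein, had 9 counts in the naive libraries and 589 in the primed libraries (5.92 and 6.05 CPM). The pooled ratio, primed over naive, was 138, with a 95% interval of 72.0 to 302. STMN2, a microtubule regulator of growing axons, had 12 counts in naive and 94 in primed libraries, a ratio of 16.5 (95% interval 9.0 to 33.0). Its relative STMN3 was abundant in both states, with 32.3, 29.4, 29.9 and 29.1 CPM in the naive and 82.1 and 89.7 CPM in the primed libraries (log2 fold change -1.51, SE 0.109).

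CALB1, a calcium buffer, read 23.9, 17.7, 19.7 and 18.4 CPM in the naive and 76.1 and 68.8 CPM in the primed libraries (log2 fold change -1.86, SE 0.137). MAPK8IP2, a scaffold of the JNK pathway, was the exception, with 13, 12.7, 14.7 and 14.1 CPM against 4.79 and 8.53 CPM. Its log2 fold change of 1.03 (SE 0.231) was 0.66 without EOS primed, still past the threshold.

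Each naive library was also set against its own parental line, as a difference of log2(CPM + 0.5) without replication. For REST the difference was 2.57 for VPA, 2.87 for CA-p38, 2.74 for AICAR 1 and 2.92 for AICAR 2. For RCOR2 it was -4.09, -3.75, -3.95 and -4.01, and for CHGA -4.30, -3.79, -4.43 and -3.98. The parental lines were close to each other for REST, where CA-p38 EOS primed was 1.07 times EOS primed, and for CHGA, at 1.02 times. They were farthest apart for GRIN1 (0.281 times) and NRXN3 (3.06 times) among genes tested, each with 1 library a side and no test.

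VPA inhibits class I histone deacetylases, so the VPA naive library was compared with the other 3 naive libraries, a contrast that the choice of genes did not use. The labels have cells recultured in PXGL after conversion, so the comparison is between cells after induction. All 32 genes passed the filter, and 0 were past the threshold with edgeR, with DESeq2 and with limma-voom, while 18 of 28982 names (0.0621%) were called by edgeR. At an unadjusted p under 0.05 were 7 of the 32 genes, beside 7.51% of all names; SCN3A was higher in VPA naive and the other 6 were lower. Among the lower genes were UNC13A (log2 difference -0.65, SE 0.187), with 13.5 CPM in VPA naive against a mean of 21.2 CPM, and SCG3 (-0.56, SE 0.235). The median log2 difference of the 32 genes was -0.23 and that of all names -0.01. With 1 VPA library, its spread is assumed to be that of the other groups.

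REST was 415 CPM in VPA naive against a mean of 515 CPM (SD 42.5, n = 3) in the other naive libraries, a log2 difference of -0.31 (SE 0.140, adjusted p = 0.656 in edgeR). BDNF was 1.26 CPM against 2.85 CPM (SD 0.433, n = 3), a log2 difference of -1.18 (SE 0.404, adjusted p = 0.583 in edgeR). SCN3B differed by -1.21 (SE 0.488, adjusted p = 0.636 in edgeR) and CHGB by -1.02 (SE 0.408, adjusted p = 0.629 in edgeR). VPA naive was the lowest of the 4 naive libraries for these 4 genes. For SCN3A it was the highest, with 1.83 CPM against 0.692 CPM (SD 0.226, n = 3), a log2 difference of 1.40 (SE 0.577, adjusted p = 0.636 in edgeR). SCG2 and SYT4 were at 0 counts in VPA naive and at or near the floor in the others, and no fold is given.

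**Figure D4:**
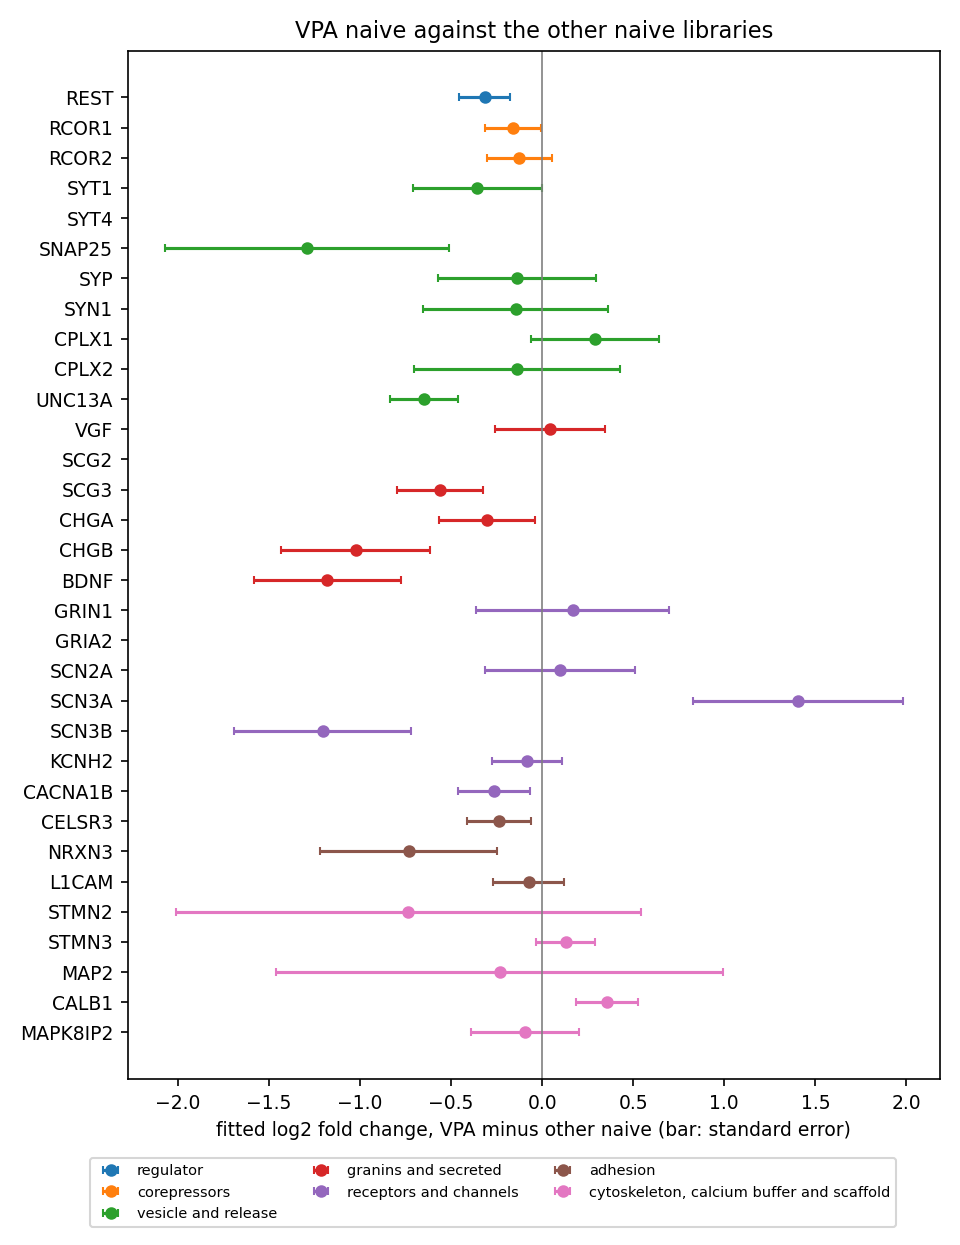
Fitted log2 difference of VPA naive minus the other 3 naive libraries for each gene, with bars of 1 SE; SYT4, SCG2 and GRIA2, at 0 counts in VPA naive, have no point. No gene was past the threshold, and the wide bars of STMN2 and MAP2 reflect 12 and 9 counts in all naive libraries.

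Of 24 other genes of REST complexes, 3 were higher and 17 lower in naive cells (edgeR, adjusted p under 0.05), beside 26% and 27% of all names tested, with a median log2 fold change of -0.59. This list and the ones that follow were also drawn up with earlier results of these data known, so their calls are not independent evidence. The methyltransferase EHMT2 was lower by 1.47 on the log2 scale in naive libraries (SE 0.093, adjusted p = 3.42e-08 in edgeR). It read 211 and 228 CPM in primed and 76.0 to 81.2 CPM in naive libraries, as the sum of several identifiers that share the name. The corepressor CDYL changed by -1.81 (SE 0.131, adjusted p = 1.26e-07 in edgeR). CTDSPL, a small phosphatase that REST complexes recruit, changed by -1.36 (SE 0.125, adjusted p = 1.20e-06 in edgeR). The core enzymes moved less.

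KDM1A was lower, 290.4 to 323 CPM in naive cells against 477 and 455 CPM in primed cells (log2 fold change -0.59, SE 0.089, adjusted p = 1.06e-04 in edgeR). HDAC2 was lower by 0.94 on the log2 scale in naive libraries (-0.94, SE 0.086, adjusted p = 1.06e-06 in edgeR), whereas its paralog HDAC1 was higher (0.42, SE 0.107, adjusted p = 0.00493 in edgeR). SIN3A was lower (-0.39, SE 0.107, adjusted p = 0.00820 in edgeR). Of 9 genes that act on REST itself, 2 were higher and 4 lower, beside 26% and 27% of all names tested. SRRM4, the splicing factor that makes the truncated neuronal REST isoform, was higher (0.95, SE 0.289, adjusted p = 0.0141 in edgeR), though AICAR naive 1 (7.10 CPM) was close to CA-p38 EOS primed (6.97 CPM). CUL1, a ubiquitin ligase scaffold, was lower (-0.67, adjusted p = 1.63e-04 in edgeR), as were TERF2 (-0.56, adjusted p = 0.0103 in edgeR) and the deubiquitinase USP15 (-0.55, adjusted p = 0.00816 in edgeR). Without EOS primed 1 of the 9 genes was higher, and without CA-p38 EOS primed 2 were lower.

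Of 35 further known REST targets, 31 were tested, 8 were higher, 12 lower and 11 not past the threshold, with a median log2 fold change of -0.50. The share that was higher was near that of all names tested (26% higher and 27% lower), and the share that was lower was above it. The neurofilament genes showed both extremes. NEFH, the heavy subunit, read 405, 427, 414 and 489.6 CPM in the naive and 10.3 and 9.65 CPM in the primed libraries (log2 fold change 5.44, SE 0.141, adjusted p = 2.25e-11 in edgeR). NEFM, the medium subunit, read 0.822, 0.673, 0.147 and 4.15 CPM against 80.2 and 77.5 CPM (log2 fold change -5.78, SE 0.645, adjusted p = 6.93e-06 in edgeR). The nicotinic receptor subunit CHRNB2 was lower (-4.97, SE 0.575, adjusted p = 9.53e-06 in edgeR), and so was the pacemaker channel HCN4 (-2.88, SE 0.304, adjusted p = 4.09e-06 in edgeR). An exact motif lay near the start of NEFH, NEFM and CHRNB2, and copies of the first and the last are shown for their opposite direction.
NEFH: ttCAGCACCggGGACAGggcc
CHRNB2: ttCAGCACCacGGACAGcgcc

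The NEFH copy lies 1533 bases before the transcript start, at chr22:29478675-29478695 on the minus strand, and the CHRNB2 copy in an exon at chr1:154567954-154567974 on the plus strand (GRCh38).

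The 29 targets were split by the motif. The 12 targets with an exact copy within 2500 bases of the start had 11 tested, with 2 higher (CACNA1B and GRIN1), 6 lower and 3 not past the threshold, and a median log2 fold change of -1.86. The 4 targets with a copy at 1 mismatch were lower, with a median of -1.65. The 13 targets with no copy within 1 mismatch had 5 higher and 8 lower, with a median of -1.31. Of all names tested, 26% were higher and 27% lower, and nothing is read from these counts. CHGA and GRIN1, which carry the same 21 bases, thus differed in opposite directions, and so did CHGB and CACNA1B.

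Another 98 protein-coding genes on none of the lists carried an exact copy within the same distance, and 78 of them were tested. In naive cells 26 of these (33.3%) were higher and 24 (30.8%) lower, beside 26% and 27% of all names tested, and their median log2 fold change was 0.01. Chosen after their values were seen, HCN2, a pacemaker channel, averaged 61.7 CPM in naive cells against 2.71 CPM in primed cells (log2 fold change 4.51, SE 0.173, adjusted p = 4.34e-10 in edgeR). BEX2 averaged 6.05 CPM in naive cells against 101 CPM in primed cells (-4.06, SE 0.263, adjusted p = 4.29e-08 in edgeR). In the VPA contrast, edgeR called 0 of 80 such genes, and DESeq2 called 1.

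**Figure D5:**
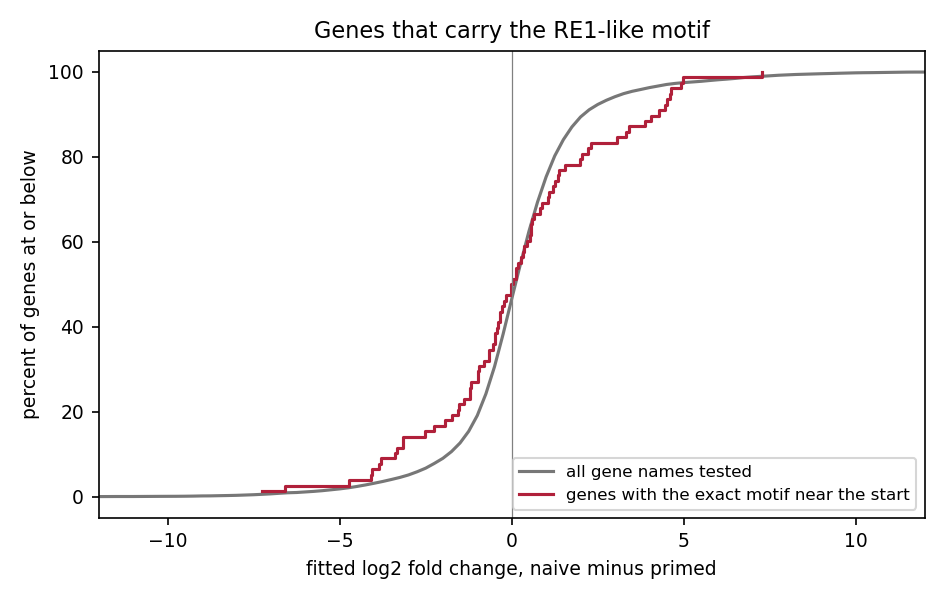
Cumulative percent of genes at or below each fitted log2 fold change (naive minus primed), for all 26497 names tested (grey) and for the 78 tested genes outside the lists with an exact motif near the start (red). Both lines cross 50% near 0 (medians 0.11 and 0.01), and the red line is flatter, with 33.3% of its genes higher and 30.8% lower.

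Markers of other cell types were examined beside these genes. The summed level of 11 neural progenitor and neuron markers was 29.7 to 38.4 CPM in naive cells against 11.1 to 11.8 CPM in primed cells. Of the 8 tested, 4 were higher and 1 lower in naive cells, beside 26% and 27% of all names tested. The same shares stand beside the fibroblast and neuroendocrine counts below. ELAVL3 carried the sum: the other 10 markers summed to 5.81 to 7.77 CPM in naive cells and to 9.24 to 10.2 CPM in primed cells, the opposite direction. ELAVL3 rose (4.02, adjusted p = 4.49e-07 in edgeR), and DCX fell (-4.59, adjusted p = 4.17e-06 in edgeR). NEUROD4 had at most 3 counts in every library. The summed level of 7 fibroblast markers was 38.9 to 80.7 CPM in naive cells against 176 to 192 CPM in primed cells. Of these, 1 was higher (TWIST2), 3 were lower (POSTN, COL1A2 and COL1A1) and 3 were not past the threshold. COL1A2 (123 and 110 CPM) and COL1A1 (60.0 and 59.7 CPM) made up most of the primed sum. The 3 not past the threshold, COL3A1 (1.22), DCN (0.87) and LUM (2.15), had positive log2 fold changes. The median log2 fold change of the 7 markers was 0.87. Of 4 neuroendocrine regulators, the 3 tested were higher in naive cells, among them INSM1 (5.96, SE 0.412, adjusted p = 8.01e-08 in edgeR) and ISL1 (3.48, SE 0.579, adjusted p = 2.20e-04 in edgeR), with a summed level of 14.6 to 22.1 CPM against 0.364 and 0.695 CPM. The granins were thus lower in the libraries where these regulators were higher. The part of these other markers in the results was not tested.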

How the data were processed

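PolyA RNA-seq counts of 6 libraries were used. The authors trimmed adapters with cutadapt 1.15 and Trim Galore 0.4.4, mapped reads with Bowtie2 to Ensembl cDNA and noncoding RNA of GRCh38, and deposited whole-number counts per Ensembl gene identifier, kept at a mapping quality of at least 1; RSEM and limma are also named in the submitters' processing notes. Whether counting used strand was not given in the sources used here. Another 23 count columns matched no sample here and were not used, and 26 spike-in rows (at most 1 count per library) were left out.

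Counts of identifiers with the same name were summed (48183 names). Naive (n = 4) and primed (n = 2) libraries entered a quasi-likelihood test (edgeR 4.0.16, R 4.3.3; TMM factors from 0.936 to 1.06, filterByExpr by group, no covariates) with Benjamini-Hochberg adjustment over all names tested and a threshold of 0.05. VPA naive was compared with the other naive libraries in a fit of 3 groups. SE is the log2 coefficient divided by the square root of F. DESeq2 1.42.0 and limma 3.58.1 (voom) were alternatives, as were other scalings and filters, single identifiers, each library left out, the parental line as a block and summed AICAR libraries. The edgeR script was tested on simulated data. P-values measure the spread between these libraries only. Intervals of count ratios are exact binomial intervals and cover counting error only.

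The 32 genes and all lists were chosen with earlier results of these data known. Every one of the 32 genes is named; of each other list, the 4 genes with the largest change past the threshold and a mean of at least 1 CPM, plus KDM1A, HDAC1, HDAC2, SIN3A, EHMT2 and SRRM4; for VPA, the 5 of the 32 genes with the largest difference and with a mean of at least 1 CPM. REST, SCN3A, UNC13A and SCG3 in the VPA comparison, RCOR3, NEUROD4, HCN2 and BEX2 were added after their values were seen. Some genes that the rule names are not reported here. Positions and lengths came from GENCODE v44 and sequences from GRCh38; promoters came from RefSeq. The window of 2500 bases was chosen after seeing the data.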

Additional observations from a re-analysis of the deposited data

Results flagged for a closer look

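GRIA2 was flagged because 1 of the 4 naive libraries stood far from the rest: AICAR naive 2 read 0.242 CPM (12 counts), whereas the nearest naive library, CA-p38 naive, read 0.0198 CPM (1 count). The cutoff is meant to flag about 1 in 20 groups of 4 normally distributed values, a rate that need not hold for counts at or near 0. The rule was run on most of the 32 genes, so a flag can arise by chance. GRIA2 was not tested between the states.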

How the results depend on the processing

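Between naive and primed libraries, 452 of 461 alternative fold changes of the 32 genes kept their direction and side of the threshold, 9 lost the call and 0 reversed. The losses were SCN3A with limma-voom (1.54), with the parental line as a block (1.77) and in the 4 leave-out fits given above, and BDNF, CELSR3 and NRXN3 without EOS primed; the cause was not tested. The count of genes with the exact motif that were higher was 15 with at least 10 counts in every library (26 as reported, 19 to 28 under the other alternatives), a filter that removes genes near 0. With library totals the median of all names was 0.20, and 7620 names were higher and 6498 lower, against 6893 and 7165. Leaving out 1 library at a time gave 7 to 9 of the 32 genes higher and 17 to 19 lower, and 1 to 3 of the REST-acting genes higher and 2 to 4 lower. In the VPA comparison 0 of the 32 genes passed under any alternative run, and genes with the exact motif numbered 1 with DESeq2 and 2 with a filter of 1 count. Differences there that changed sign, none past the threshold, were SYN1 (0.092) and MAP2 (0.30) with limma-voom, SYN1 (0.011) and VGF (-0.17) without CA-p38 naive, SCN2A (-0.081) without AICAR naive 1, and SYP (0.14), SYN1 (0.20), CPLX2 (0.31) and MAP2 (0.39) without AICAR naive 2. The labels tie each naive library to a parental line, and with that line as a block 8 of the 32 genes were higher and 19 lower. No replicate block was fitted, since the replicate numbers were given in accession order and pair no samples. Depth limits GRIA2, SYT4, SCG2, MAP2 and STMN2 in naive cells.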
